A study of Mus musculus with 4 samples.

Results

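The enzymes that build and break down glycogen were followed in brown adipose tissue of Tsku knockout and wild-type mice, as 9 genes: the glycogen synthases Gys2 and Gys1, the branching enzyme Gbe1, the phosphorylases Pygl and Pygb, glycogenin (Gyg), UDP-glucose pyrophosphorylase (Ugp2) and the phosphatase-targeting subunits Ppp1r3c and Ppp1r3b. Each gene was read from the probe set whose annotation gives its symbol alone, and where a gene had more than 1 such probe set the brightest on average was used. All 9 had a probe set, out of 22180 genes with 1 symbol on the array, and only Ppp1r3b had a second one. The probe sets were chosen by their mean log2 values, and the genes were selected on the pathway of Gys2 with knockout and wild-type values of these arrays already known, so the differences between genotypes in these 9 are a description and carry no test.

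The knockout group was 2 samples of brown fat from male C57BL/6 mice lacking Tsku, the gene of a secreted leucine-rich proteoglycan, and the comparison group was 2 samples from wild-type males of the same strain. All mice were 4 months old and were fed chow. How the Tsku allele was made, and in which cells it acts, is not given in the sources used here. Tsku was the only symbol of 0 probe sets. Probe sets with several symbols were not searched for it, so the genotypes rest here on the labels. The labels call the samples biological replicates without naming the animals, so any p-value speaks only of the scatter among these arrays, whose source may be technical.

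Each sample was hybridised to 1 whole-transcript array, with values on a log2 scale. Array medians ran from 0.56 to 0.58. Background was set on each array at the 95th percentile of 1405 probe sets for receptors of smell and pheromones, which lay between 0.63 and 0.81. Precision was limited by having 4 arrays, and the 95% interval of a log2 difference typically (median) reached 0.52 to either side. Markers of brown fat were present on all arrays. Cidea, a lipid droplet protein of brown fat, read 9.44 and 9.52 in the knockout and 9.44 and 9.37 in wild type, and 9 of 10 brown adipocyte markers were above background on all 4 arrays. The exception was Elovl3, which was above it on 2.

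Glycogen is a branched polymer of glucose that cells keep as a quick fuel store. Ugp2 makes UDP-glucose, glycogenin starts the chain, glycogen synthase lengthens it and the branching enzyme adds branches, while phosphorylase releases glucose 1-phosphate. Targeting subunits bring protein phosphatase 1 to the particle, where it activates the synthase and inactivates phosphorylase. Gys2 is the synthase of liver and is also present in fat, Gys1 is the form of muscle and most other tissues, and Pygl and Pygb are the liver and brain phosphorylases.

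In knockout brown fat the synthase gene Gys2 had the largest difference of the 9 genes. It was 2.89-fold higher in the knockout, while the differences of the other 8 genes lay between -0.35 and 0.36 on the log2 scale. The synthase Gys1 and the phosphorylase Pygl were higher on both knockout arrays than on both wild-type arrays by smaller margins, and glycogenin and the branching enzyme differed by less than 0.1. In all, the arrays of the genotypes did not overlap in 3 of the 9 genes, against 35.2% of all genes tested, and in those 3 the knockout was higher, as it was without overlap in 19.4% of all genes. The remaining 6 overlapped. The median log2 difference over the 9 genes was 0.07, and over all genes tested it was 0.02. The median of the 9 became 0.27 when wild-type replicate 1 was left out and 0.026 when replicate 2 of that genotype was.

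The promoter table of RefSeq (build GRCm38.p6) had an entry for 7 of the 9 genes, Gys2 and Ppp1r3b being those without one. The 250 bases before the annotated start are given 5′ to 3′ for Gys1 and Pygl, which like Gys2 were higher on both knockout arrays, and for Ppp1r3c, whose mean was lower. Capitals mark CACGTG, the core of an E-box, and CCAAT, each searched on both strands (CCAAT reads ATTGG on the other strand).
Gys1 promoter, chr7:45434589-45434838, plus strand: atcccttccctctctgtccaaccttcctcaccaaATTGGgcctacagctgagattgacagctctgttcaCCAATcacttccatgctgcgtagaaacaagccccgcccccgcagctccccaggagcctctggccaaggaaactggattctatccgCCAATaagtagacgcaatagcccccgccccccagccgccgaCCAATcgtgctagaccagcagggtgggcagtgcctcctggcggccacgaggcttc
Pygl promoter, chr12:70227684-70227933, minus strand: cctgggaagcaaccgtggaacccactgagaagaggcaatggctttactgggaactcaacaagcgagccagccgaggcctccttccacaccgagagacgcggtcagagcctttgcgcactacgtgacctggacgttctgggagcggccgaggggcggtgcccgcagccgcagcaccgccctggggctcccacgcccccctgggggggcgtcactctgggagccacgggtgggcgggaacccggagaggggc
Ppp1r3c promoter, chr19:36736605-36736854, minus strand: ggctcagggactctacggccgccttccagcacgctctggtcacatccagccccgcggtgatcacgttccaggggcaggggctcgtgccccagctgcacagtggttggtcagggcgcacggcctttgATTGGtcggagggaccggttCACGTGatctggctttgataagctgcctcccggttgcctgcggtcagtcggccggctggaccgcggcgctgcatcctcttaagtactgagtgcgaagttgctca
The letters CACGTG were present in 1 of the 7 genes, Ppp1r3c, starting 104 bases before the start site, against 6.02% of 32851 promoter windows of the same length. CCAAT was present in 3 genes (Gys1 with 4 copies, Ppp1r3c with 1, and 1 of the 2 promoters of Ugp2 with 1), against 33.8% of windows. The Pygl window held neither. GC content was 60% in the Gys1 window, 69.2% in that of Pygl and 64.4% in that of Ppp1r3c.

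Gys2, which adds glucose to the growing chain, was read by probe set 17472497. It had log2 values of 6.52 and 6.00 in the knockout samples, against 4.62 and 4.84 in wild type. Both knockout samples were high, and the lower of them exceeded the higher wild-type sample by 1.16. The means were 6.26 ± 0.37 in the knockout and 4.73 ± 0.16 in wild type (SD, n = 2 each), a log2 difference of 1.53. The gap between genotypes was therefore larger than the gap of 0.52 between the knockout samples and that of 0.22 between the wild-type samples. Among the 22180 genes 9 had a larger difference in the same direction and 39 a larger one in either direction, and an absolute difference above 1 was seen in 0.834% of all genes. With single arrays left out the Gys2 difference ran from 1.27 to 1.79, the lowest being without knockout replicate 1.

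Gys1, the more widely expressed synthase, had values of 6.90 and 6.71 in the knockout and of 6.46 and 6.49 in wild type (probe set 17477811). The wild-type samples were within 0.03 of each other and both knockout samples lay above them. The log2 difference was 0.33, or 1.26-fold, and it ran from 0.24 to 0.43 with single arrays left out. On every array the centred value of Gys2 can be set against that of Gys1 without comparing the levels of different probe sets. Gys2 minus Gys1 was 0.77 and 0.43 in the knockout samples and -0.70 and -0.50 in wild type, so the Gys2 to Gys1 ratio was 2.30-fold higher in the knockout.

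**Figure D1:**
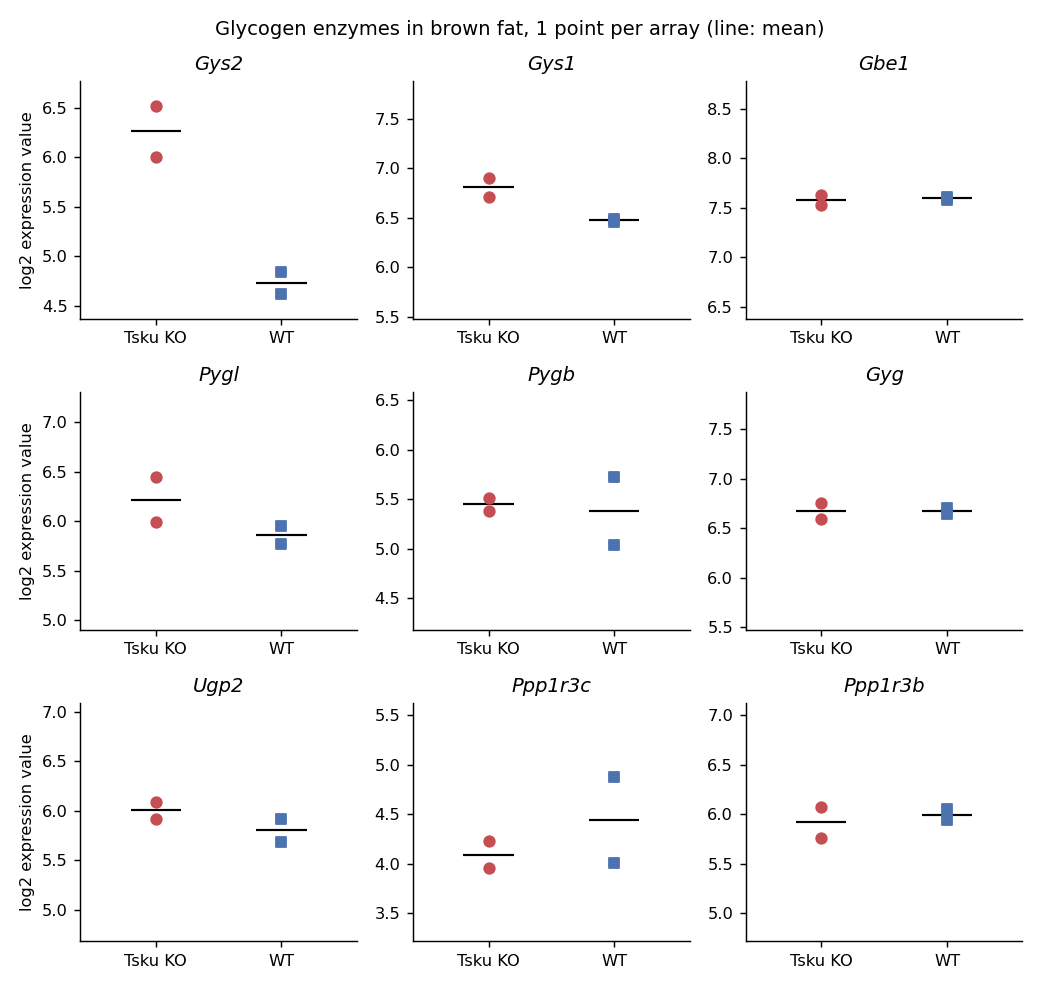
Log2 expression values of the 9 glycogen genes, 1 panel per gene, with 1 point per array and a line at the mean of each genotype (knockout left, wild type right); every vertical axis spans the same number of log2 units. Gys2 shows the widest gap, the knockout arrays at 6.52 and 6.00 and the wild-type arrays at 4.62 and 4.84, and Pygb and Ppp1r3c are spread most widely among the wild-type arrays.

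The genes that prepare and shape the chain differed little. Ugp2, which supplies UDP-glucose, read 6.09 and 5.92 in the knockout and 5.92 and 5.68 in wild type. The lower knockout sample and the higher wild-type sample were level at 5.92, so the genotypes just overlapped, with a log2 difference of 0.20. Leaving out wild-type replicate 2 gave 0.084 and leaving out replicate 1 of that genotype gave 0.32. Glycogenin (Gyg), the self-glucosylating primer, read 6.59 and 6.76 in the knockout and 6.65 and 6.70 in wild type. Both wild-type values lay between the knockout values. Gbe1, the branching enzyme, read 7.63 and 7.53 in the knockout and 7.61 and 7.58 in wild type, again with both wild-type samples inside the knockout range. Its log2 difference was -0.01, and over single arrays left out it stayed between -0.07 and 0.04.

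Of the breakdown enzymes, Pygl, the liver phosphorylase, read 6.44 and 5.99 in the knockout and 5.77 and 5.95 in wild type (probe set 17281721). Knockout replicate 1 was the high sample, and knockout replicate 2 exceeded the higher wild-type sample by only 0.04. The log2 difference of 0.36 was smaller than the gap of 0.45 between the knockout samples, and it was 0.14 without knockout replicate 1. Gys2 minus Pygl, as centred values, was 0.62 and 0.55 in the knockout and -0.60 and -0.57 in wild type, so Gys2 was 2.26-fold higher relative to Pygl in the knockout. Both knockout arrays gave nearly the same relative value, although each gene on its own was higher in knockout replicate 1.

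Pygb, the brain phosphorylase, read 5.52 and 5.39 in the knockout, and both samples fell between the wild-type values of 5.73 and 5.04. The wild-type samples differed by 0.69, more than the 0.13 between the knockout samples. The log2 difference of 0.07 turned to -0.28 without wild-type replicate 2 and was 0.42 without wild-type replicate 1.

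The targeting subunits both overlapped between genotypes. Ppp1r3c, also called PTG, read 4.22 and 3.96 in the knockout and 4.88 and 4.00 in wild type. Wild-type replicate 1 stood above the other 3 arrays, which lay within 0.26 of each other. The log2 difference of -0.35 rested on that array and was 0.09 without it. Ppp1r3b, the liver targeting subunit GL, read 6.08 and 5.77 in the knockout and 6.05 and 5.94 in wild type, with both wild-type samples inside the knockout range and a difference of -0.07. Its second, dimmer probe set read 3.62 and 3.03 in the knockout and 3.01 on both wild-type arrays, a difference of 0.32 that came from knockout replicate 1.

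**Figure D2:**
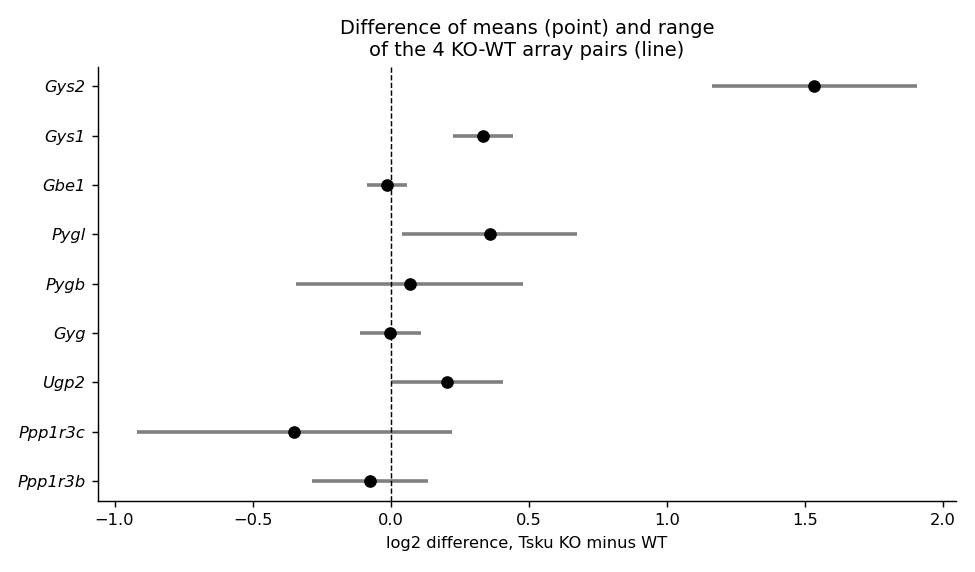
Log2 difference, knockout minus wild type, for each of the 9 genes: the point is the difference of the means and the line runs from the smallest to the largest of the 4 differences between a knockout and a wild-type array. The line of Gys2 runs from 1.16 to 1.90, those of Gys1 and Pygl also stay above 0, and that of Ppp1r3c spans -0.92 to 0.22.

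The arrays also differed in the RNA of other cell types, and those values stand beside the Gys2 difference. All 19 measured liver genes had a higher mean in the knockout, 8 of them without overlap (19.4% of all genes were higher without overlap), and their median log2 difference was 0.25. Only 7 were above background on all arrays, and Apoh, F2, Fabp1, Fgg and Tdo2 were not above it on any. The liver genes other than Cyp2e1, which read between 8.18 and 8.54 on all arrays and was set aside after its values were seen, summed on the linear scale to 106 and 55.8 in the knockout and to 45.8 and 34.5 in wild type. With Cyp2e1 the sums were 479 and 350 in the knockout and 335 and 383 in wild type.

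After centring of each gene, the liver list had a median of 0.37 in knockout replicate 1, one of -0.14 in knockout replicate 2, and medians of -0.07 and -0.21 in wild type. By that median knockout replicate 2 lay between the wild-type samples, but by the sum without Cyp2e1 and by the abundant liver gene Alb it lay above both. The sum and Alb are not separate readings, since Alb is part of that sum and has the highest value in it on every array. Alb, the serum albumin gene, read 5.77 and 4.41 in the knockout and 3.68 and 2.87 in wild type. Gys2 after centring was 1.03 and 0.51 in the knockout and -0.88 and -0.66 in wild type, so the liver list and Gys2 were both highest in knockout replicate 1. Pygl and Ppp1r3b were also highest on that array, Ppp1r3b narrowly (6.08 against 6.05 in wild-type replicate 1), and so were Gys1, Gbe1 and Ugp2. Pygb and Ppp1r3c were instead highest in wild-type replicate 1 and Gyg in knockout replicate 2, and Phkg2 was lowest in knockout replicate 1. In bulk tissue fewer cells of a type and less RNA per cell cannot be told apart.

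The 24 skeletal muscle genes all had lower means in the knockout, 18 of them without overlap (against 15.8% of all genes lower without overlap), with a median log2 difference of -1.58. Only Tnni1 was above background on none of the arrays, but only 13 of the 24 were above it on all of them. The median and the count without overlap therefore rest in part on values that are not above background. The linear values of the 24 genes summed to 237 and 90.2 in the knockout and to 371 and 557 in wild type. Gys1, the synthase of muscle and most other tissues, was higher on both knockout arrays. All 15 macrophage genes also had lower means in the knockout (median -0.48, sums of 184 and 329 in the knockout and of 338 and 360 in wild type). All 10 brown adipocyte genes had higher means in the knockout (median 0.41), against 52.6% of all genes. Of these 10, 6 did so without overlap, against 19.4% of all genes. Their sums were 2540 and 2572 in the knockout and 2106 and 1966 in wild type. Higher means were also seen in 7 of 10 general adipocyte genes (median 0.10) and in 4 of 5 white adipocyte genes measured (median 0.19). The exception among the white adipocyte genes, Nnat, had a lower mean (-1.01). The part of these lists in the differences of the glycogen genes was not tested.

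**Figure D3:**
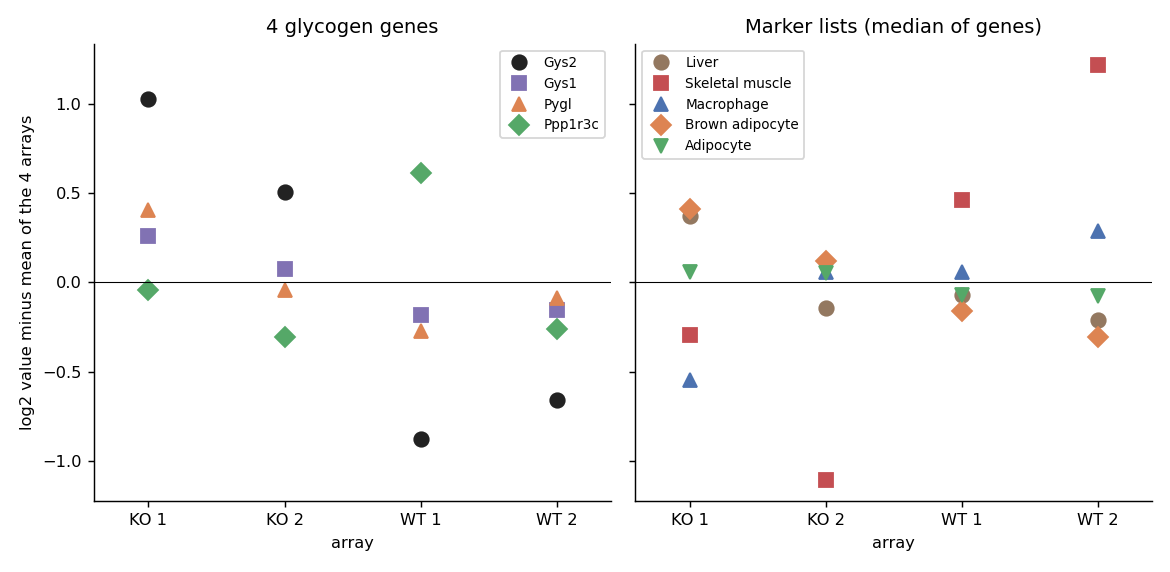
Log2 values minus the mean of the 4 arrays, by array, for 4 glycogen genes (left) and as the median of each marker list (right). Gys2 is above 0 on both knockout arrays (1.03 and 0.51) and below it on both wild-type arrays, while the liver list is above 0 only in knockout replicate 1 (0.37) and the muscle list is lowest there in knockout replicate 2.

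Other genes of glycogen metabolism were compared with limma and Benjamini-Hochberg adjustment over all 22180 genes. Of 46 listed genes 42 were analysed here, and 30 of these were above background on all arrays. None of the 42 had an adjusted p under 0.05, against 0% of all genes (0 of 22180). At an unadjusted p under 0.05 there was 1 of the 42, lower in the knockout, against 5.56% of all genes (1234). Of all genes tested, 2.89% were higher and 2.67% lower at that p. Means were higher in the knockout in 16 of the 42 (38.1%) and lower in 26, against 52.6% of all genes higher. The median log2 difference of the 42 was -0.03, against 0.02 for all genes. The median of the 42 was -0.07 without knockout replicate 1, -0.085 without wild-type replicate 1 and 0.016 when replicate 2 of that genotype was left out.

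The single gene with an unadjusted p under 0.05 was Pygm, the muscle phosphorylase. Its values were 3.03 and 2.504 in the knockout samples, against 4.08 and 4.999 in the wild-type samples. Both knockout samples were below both wild-type samples, and the log2 difference was -1.77 (SE 0.35, 95% interval -2.64 to -0.90, limma adjusted p = 0.872). The same arrays had a median of -1.58 in skeletal muscle genes, and the part of muscle RNA in the Pygm difference was not tested. Ppp1r3a, the muscle targeting subunit, was close to background, with 0.88 and 0.54 in the knockout and 0.90 and 1.14 in wild type. The 3 phosphorylase genes thus ran in different directions: Pygl higher in the knockout without overlap, Pygb overlapping and Pygm lower without overlap.

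Among the 15 other enzymes and targeting proteins of glycogen measured were Pygm and Ppp1r3a. Means were higher in the knockout in 5 of the 15, against 52.6% of all genes, and lower in 10, with a median of -0.03. The median absolute difference was 0.24 against 0.18 for all genes, and 8 did not overlap between genotypes, against 35.2% of all genes. The 8 include Nhlrc1 and Ppp1r3a, which were not above background on all arrays. Phkg2, the catalytic subunit of the phosphorylase kinase of liver, read 3.87 and 3.97 in the knockout and 4.27 and 4.36 in wild type, a log2 difference of -0.39 (95% interval -0.84 to 0.05). Gaa, the lysosomal enzyme that digests glycogen, differed by 0.34 (-0.14 to 0.82). Nhlrc1, which encodes the ubiquitin ligase malin, was above background on 1 array. For Phkg2 and Gaa the arrays of the genotypes did not overlap, as in 35.2% of all genes, and neither passed the threshold (limma adjusted p = 0.872 and 0.888).

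The median over 12 genes that supply or use glucose phosphates was -0.10. In 10 of them the mean was lower in the knockout and in 2 higher, against 52.6% of all genes higher. The 2 were Hk2, the insulin-responsive hexokinase, and Slc2a4, the insulin-responsive glucose transporter GLUT4. Hk2 read 6.51 and 5.89 in the knockout and 5.76 and 5.57 in wild type, a difference of 0.53 (95% interval -0.10 to 1.17, limma adjusted p = 0.872). Slc2a4 read 6.87 and 6.86 in the knockout and 6.59 and 6.58 in wild type. Its samples were almost level within each genotype, and the difference was 0.28 (-0.16 to 0.72, limma adjusted p = 0.895). Pgm2, a phosphoglucomutase, and its relative Pgm2l1 overlapped between genotypes and differed by -0.29 and -0.28.

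Of 15 kinases and phosphatase subunits that act on the synthase or on phosphorylase, 9 had higher means in the knockout (median 0.02). The other 6 had lower means, and 52.6% of all genes had higher ones. Here too 8 did not overlap between genotypes, against 35.2% of all genes, and the median absolute difference was 0.14. Akt2, the insulin-signalling kinase that restrains the synthase's inhibitor GSK3, read 6.22 and 6.01 in the knockout and 5.63 and 5.70 in wild type, a difference of 0.45 (95% interval -0.01 to 0.92, limma adjusted p = 0.872). Subunits of AMPK, the energy sensor that phosphorylates glycogen synthase, differed in both directions. The catalytic subunit Prkaa1 differed by -0.38 (-0.85 to 0.08). Of the forms of the glycogen-binding subunit, Prkab1 differed by 0.42 (-0.10 to 0.94) and Prkab2 by -0.34 (-0.90 to 0.21). The intervals of these 4 genes include 0 and are wide enough to hold differences as large as those of Gys1 and Pygl in 1 direction or the other. Over all 3 lists the adjusted p-values ran from 0.872 to 0.998.

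**Figure D4:**
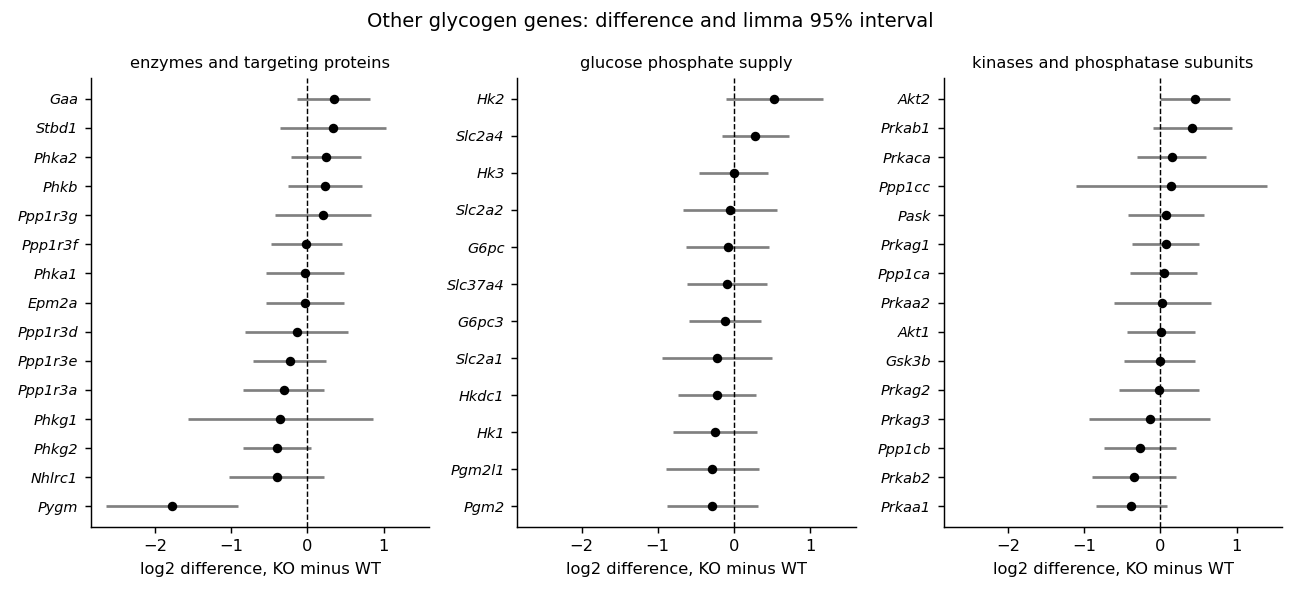
Log2 difference, knockout minus wild type, with its limma 95% interval, for the 42 other glycogen genes measured, in 3 lists. Pygm, at -1.77, is the only gene whose interval does not include 0; the highest is Hk2 at 0.53.

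The genes whose values were nearest to those of Gys2 over the 4 arrays, by the root mean square distance between values centred on each gene's own mean, were Angptl8 (0.11), Fasn (0.11), Mmd2 (0.14), Hspb8 (0.18) and Ugt3a2 (0.18), out of 17418 genes compared. The median distance was 0.81, and 6 genes lay within 0.2. Ugt3a2 was below background on both wild-type arrays, so its distance rests in part on values that are not above background. With 4 arrays and a split between genotypes in all of them, such nearness describes the arrays and is not tested. Angptl8, a secreted regulator of lipoprotein lipase, read 5.75 and 5.31 in the knockout and 3.78 and 4.29 in wild type. Fasn, the fatty acid synthase, read 8.96 and 8.28 in the knockout and 6.74 and 7.16 in wild type. In both, as in Gys2, knockout replicate 1 was the highest array and wild-type replicate 1 the lowest.

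**Figure D5:**
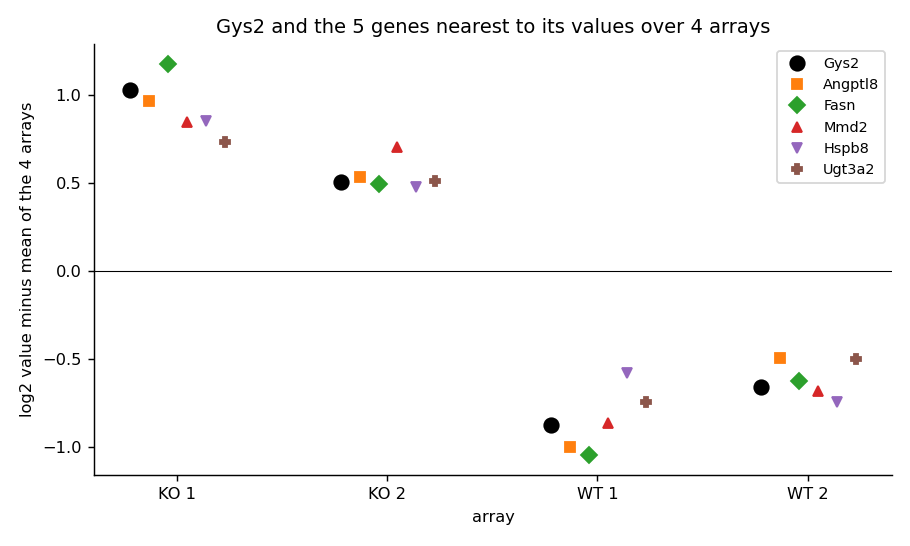
Log2 values minus the mean of the 4 arrays for Gys2 and the 5 genes nearest to it; points are spread sideways within an array for legibility. All 6 genes lie above 0 on both knockout arrays and below 0 on both wild-type arrays.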

How the data were processed

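Total RNA of 4 brown fat samples was measured on whole-transcript arrays, 1 per sample. The authors deposited normalized log2 values for 41345 probe sets, and per the submitters' processing notes RMA, oligo and limma were used, with no roles or versions given. The base of the logarithm follows from RMA. The deposited log2 values reach down to -1.12, and the origin of values this low is unstated. A constant offset would cancel in differences but not in levels. Whether the offset is constant was not tested. RMA pulls dim probe sets together, which understates their differences.

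The platform annotation gave 1 symbol for 23521 probe sets, several for 1814 and none for 16010. Of the first, 23328 matched the GRCm38.p6 gene table by Entrez ID. The brightest probe set per gene was kept (22180 genes). The contrast of knockout minus wild type was fitted with limma 3.58.1 under R 4.3.3 (lmFit and eBayes, two-sided, no block, no filter), with a threshold of adjusted p under 0.05. The scripts were tested on simulated data.

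Members and lists were chosen with earlier results of these data known. Named are all members, list genes past the threshold, up to 4 with the smallest p per list, Pygm, Ppp1r3a and the 5 genes nearest to Gys2, leaving out predicted, small RNA and chemoreceptor genes. Marker genes and Cyp2e1 stand outside this rule. Alternatives were a replicate block, a filter on dim genes, the mean of probe sets, repeated quantile normalization, median centring, a mean trend, robust variances and each array left out.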

Additional observations from a re-analysis of the deposited data

How the results depend on the processing

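The Gys2 difference was 1.53 after repeated quantile normalization and after median centring, and between 1.27 and 1.79 with single arrays left out. Gys1, Pygl and Ugp2 kept their direction in all 8 settings tried. Some of these outcomes were fixed in advance. The filter leaves differences unchanged, and so does the mean of probe sets for these genes, which had 1 each. Leaving out 1 array could not turn the sign of Gys2, Gys1 or Pygl, whose genotypes did not overlap. Gbe1, Pygb, Gyg and Ppp1r3c changed sign when single arrays were left out, and so did Ppp1r3b, which also turned to 0.12 with the mean of its probe sets. The median of the 9 genes ran from 0.026 to 0.27 with single arrays left out, and that of the 42 other glycogen genes from -0.085 to 0.016. Over all genes, those past the threshold numbered 1 with the replicate block and 1 with a mean trend, and ran from 0 to 15 with single arrays left out (15 without wild-type replicate 1, 2 without wild-type replicate 2). The gene that passed under the first 2 settings was Cyp2b10, named after its values were seen. Without wild-type replicate 2 it passed together with the muscle gene Myot. None of the 42 other glycogen genes passed in any of these settings. The filter at the median left 713 genes with an unadjusted p under 0.05, out of 11090 tested, against 1234 out of 22180 without it. The filter and the settings without an array also had fewer genes or samples, and the cause of these changes was not tested. The labels state no pairing by replicate number. Deviations of same-numbered samples from their genotype means correlated at -0.07 across genes. From 2 samples per genotype this is a single value, which cannot exclude a pairing. With 2 samples per genotype, differences of the size of Gys1 or Pygl are within the median half-width of 0.52.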
